A study of Homo sapiens with 34 samples.

Results

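The genes described here are 9 homeobox genes, namely the HOXA members HOXA3, HOXA5, HOXA7, HOXA9, HOXA10, HOXA11 and HOXA13 and the partner genes MEIS1 and PBX3. They were chosen by symbol, and all 9 were among the 23368 gene rows of the count files. RNA was sequenced from 34 libraries of 6 established human blood cancer lines, 17 libraries treated with 10 µM etoposide for 4 hours and 17 left untreated. Etoposide traps topoisomerase II on cleaved DNA, which breaks both strands. THP1 and U937 are of myeloid origin, JURKAT comes from T cells, RAMOS from a Burkitt's lymphoma of mature B cells, and NALM6 and 697 from pre-B acute lymphoblastic leukemia. Each line is a single established culture, and every group had 3 libraries except etoposide-treated 697 and untreated U937, which had 2 each.

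HOX proteins are transcription factors whose genes lie in clusters, with the 3' end (low numbers) and the 5' end (high numbers) of a cluster used in different regions and cell types. In blood, HOXA9 and its neighbours are used in stem and progenitor cells, where HOXA9 binds DNA together with the TALE homeobox proteins MEIS1 and PBX3, and their RNAs are normally lost as cells mature. Persistent HOXA9 and MEIS1 expression is a known feature of leukemias with KMT2A or MLLT10 fusions. THP1 carries a KMT2A fusion and U937 a PICALM-MLLT10 fusion.

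Library totals ran from 8.18 to 37.1 M (mega) counts. Levels are CPM, counts per M (mega) counts of a library, scaled by TMM over the 34 libraries, and calls rest on an adjusted p below 0.05 (edgeR quasi-likelihood test, Benjamini-Hochberg over all genes tested). Lineage markers were in place. Summed myeloid markers reached 3413 CPM in untreated THP1 and 5009 CPM in untreated U937, against at most 61.02 CPM in the 4 untreated lymphoid lines. T cell markers summed to 1907 CPM in untreated JURKAT, against at most 138.3 CPM (RAMOS) in the other untreated lines. B cell markers summed to 3301 CPM in untreated RAMOS, 1323 in NALM6 and 1355 in 697, against at most 55.89 CPM (JURKAT) elsewhere. Untreated JURKAT also had 197.6 CPM of pre-B markers, and untreated RAMOS 32.05 CPM. Pre-B markers summed to 1133 CPM in treated and 3725 CPM in untreated NALM6, and to 1125 CPM in treated and 4060 CPM in untreated 697. In those 2 lines the treated and untreated libraries carried different sequencing codes (a library pool code and a flow cell, as the file labels give them, called a pool here), so pool and treatment cannot be told apart there. The other 4 lines did not span pools. THP1 and U937 shared a pool, the untreated pre-B lines shared another, and the treated pre-B libraries shared one with JURKAT. For the untreated myeloid against lymphoid contrast, pool and lineage cannot be told apart.

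The promoters of HOXA9, HOXA10, MEIS1 and PBX3 are shown because these genes carry the main contrasts in the myeloid lines. HOXA9 and HOXA10 are neighbours whose log2 fold changes after etoposide in U937 were -1.31 and -0.23, and untreated MEIS1 was high in U937 and PBX3 in THP1. Each sequence holds 250 bases before and 50 bases after a transcription start in RefSeq (GRCh38.p14), read 5' to 3' on the gene's strand. HOXA9 lies at chr7:27165488-27165787 (minus strand), HOXA10 at chr7:27179812-27180111 (minus strand, the upstream one of 2 listed starts), MEIS1 at chr2:66434875-66435174 (plus strand) and PBX3 at chr9:125747933-125748232 (plus strand). Capitals mark a TATAAA box, a CCAAT box, or a half-site of the MEIS type, TGACAG, on either strand.
HOXA9: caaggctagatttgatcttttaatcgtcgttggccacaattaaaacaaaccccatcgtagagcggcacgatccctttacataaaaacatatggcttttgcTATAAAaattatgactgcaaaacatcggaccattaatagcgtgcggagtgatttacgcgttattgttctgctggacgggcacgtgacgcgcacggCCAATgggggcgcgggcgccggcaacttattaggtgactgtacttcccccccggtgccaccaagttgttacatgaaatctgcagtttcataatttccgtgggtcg
HOXA10: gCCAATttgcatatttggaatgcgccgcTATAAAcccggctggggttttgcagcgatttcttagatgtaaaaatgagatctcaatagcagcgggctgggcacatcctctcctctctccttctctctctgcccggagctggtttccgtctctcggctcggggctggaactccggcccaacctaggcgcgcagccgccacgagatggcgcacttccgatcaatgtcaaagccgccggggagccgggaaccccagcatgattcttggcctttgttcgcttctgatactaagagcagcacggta
MEIS1: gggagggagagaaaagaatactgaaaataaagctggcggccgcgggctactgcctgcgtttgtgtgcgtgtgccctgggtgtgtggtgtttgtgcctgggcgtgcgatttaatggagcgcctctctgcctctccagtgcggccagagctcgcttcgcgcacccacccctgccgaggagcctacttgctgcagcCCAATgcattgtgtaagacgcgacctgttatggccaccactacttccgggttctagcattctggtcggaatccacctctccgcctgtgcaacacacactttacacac
PBX3: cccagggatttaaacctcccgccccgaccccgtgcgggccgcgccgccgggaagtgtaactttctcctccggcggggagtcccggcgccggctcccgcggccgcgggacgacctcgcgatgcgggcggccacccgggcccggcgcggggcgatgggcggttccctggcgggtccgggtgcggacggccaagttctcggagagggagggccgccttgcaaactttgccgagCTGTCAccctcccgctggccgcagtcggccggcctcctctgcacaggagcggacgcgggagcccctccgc

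Searched on both strands were the 3 motifs above together with the PBX-HOX composite TGATNNAT and the cyclic AMP element TGACGTCA. No overlap between motifs occurred among the capitals printed. Promoters were held for 8 of the 9 members, all but HOXA5. The HOXA9 and HOXA10 windows each held 1 TATAAA and 1 CCAAT, the MEIS1 window held 1 CCAAT, and the PBX3 window held 1 TGACAG. Over 35116 promoters of this length, 11.5% held TATAAA, 34.6% held CCAAT, 15.8% held TGACAG, 7.40% held TGATNNAT and 1.85% held TGACGTCA. GC content was 48.0% for HOXA9, 56.7% for HOXA10, 58.3% for MEIS1 and 76.0% for PBX3, against a median of 58.7% over all promoters. TGATNNAT and TGACGTCA were not found in these 4 windows.

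The untreated lines differed in which HOXA genes were read and at what level, and U937 had reads at both ends of the cluster. HOXA9, HOXA10, HOXA11 and HOXA13 were high in the myeloid lines. HOXA9 averaged 6.25 ± 0.657 CPM in untreated THP1 (SD, n = 3) and 9.22 ± 0.339 CPM in untreated U937 (SD, n = 2), and it had no read in any untreated lymphoid library. With 3 counts as the limit that a count of 0 allows, that left room for at most 0.0537 CPM in NALM6, 0.0566 in 697, 0.0591 in RAMOS and 0.0670 in JURKAT. HOXA10 averaged 53.8 ± 2.40 CPM in THP1, 108.1 ± 2.69 in U937 and 1.30 ± 0.508 in JURKAT, with 1 read in all RAMOS controls and none in NALM6 or 697. HOXA11 followed the same order, at 36.6 ± 2.12 CPM in THP1, 59.9 ± 1.03 in U937 and 0.925 ± 0.141 in JURKAT. HOXA13, the last gene at the 5' end, averaged 26.4 ± 3.10 CPM in THP1, 36.9 ± 0.554 in U937, 3.29 ± 0.0901 in JURKAT and 0.136 ± 0.153 in 697, and had no read in NALM6 or RAMOS. For these 4 genes no library of one line overlapped the next line in the order, except where the lower lines held few or no reads.

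HOXA5 and HOXA7 were highest in the T line instead. HOXA5 averaged 10.5 ± 1.38 CPM in JURKAT, 6.37 ± 0.841 in U937, 2.39 ± 0.158 in 697, 1.91 ± 0.324 in THP1 and 1.89 ± 0.144 in RAMOS, with 1 read in all NALM6 controls. The THP1 and RAMOS libraries overlapped. HOXA7 averaged 8.56 ± 1.35 CPM in JURKAT, 1.55 ± 0.208 in U937 and 0.225 ± 0.0619 in THP1, with 2 reads in all RAMOS controls and none in NALM6 or 697. HOXA3 averaged 4.41 ± 0.814 CPM in U937, 1.56 ± 0.382 in JURKAT, 1.24 ± 0.292 in 697, 0.551 ± 0.112 in THP1 and 0.326 ± 0.170 in RAMOS, and had no read in NALM6. JURKAT overlapped 697 in HOXA3, and THP1 overlapped RAMOS. Thus NALM6 held 1 read of the 7 HOXA members in 3 untreated libraries, whereas 697, the other pre-B line, had HOXA3 and HOXA5 in every library.

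MEIS1, a TALE cofactor of HOXA9, divided the myeloid lines. It averaged 92.3 ± 2.87 CPM in untreated U937 (SD, n = 2), 4.40 ± 0.445 in JURKAT, 0.447 ± 0.397 in RAMOS and 0.0913 ± 0.00615 in THP1 (SD, n = 3 each), the last from 6 reads in 3 libraries, and it had no read in NALM6 or 697. PBX3, a TALE protein that binds beside HOX proteins, was read in every library of every line. It averaged 176 ± 6.38 CPM in THP1, 52.9 ± 0.887 in NALM6, 29.1 ± 0.740 in 697, 25.1 ± 3.11 in JURKAT, 22.4 ± 2.38 in U937 and 20.03 ± 0.479 in RAMOS. Of neighbours in that order only JURKAT and U937 overlapped. In a bulk sample, fewer cells that express a gene and less RNA per cell cannot be told apart.

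**Figure D1:**
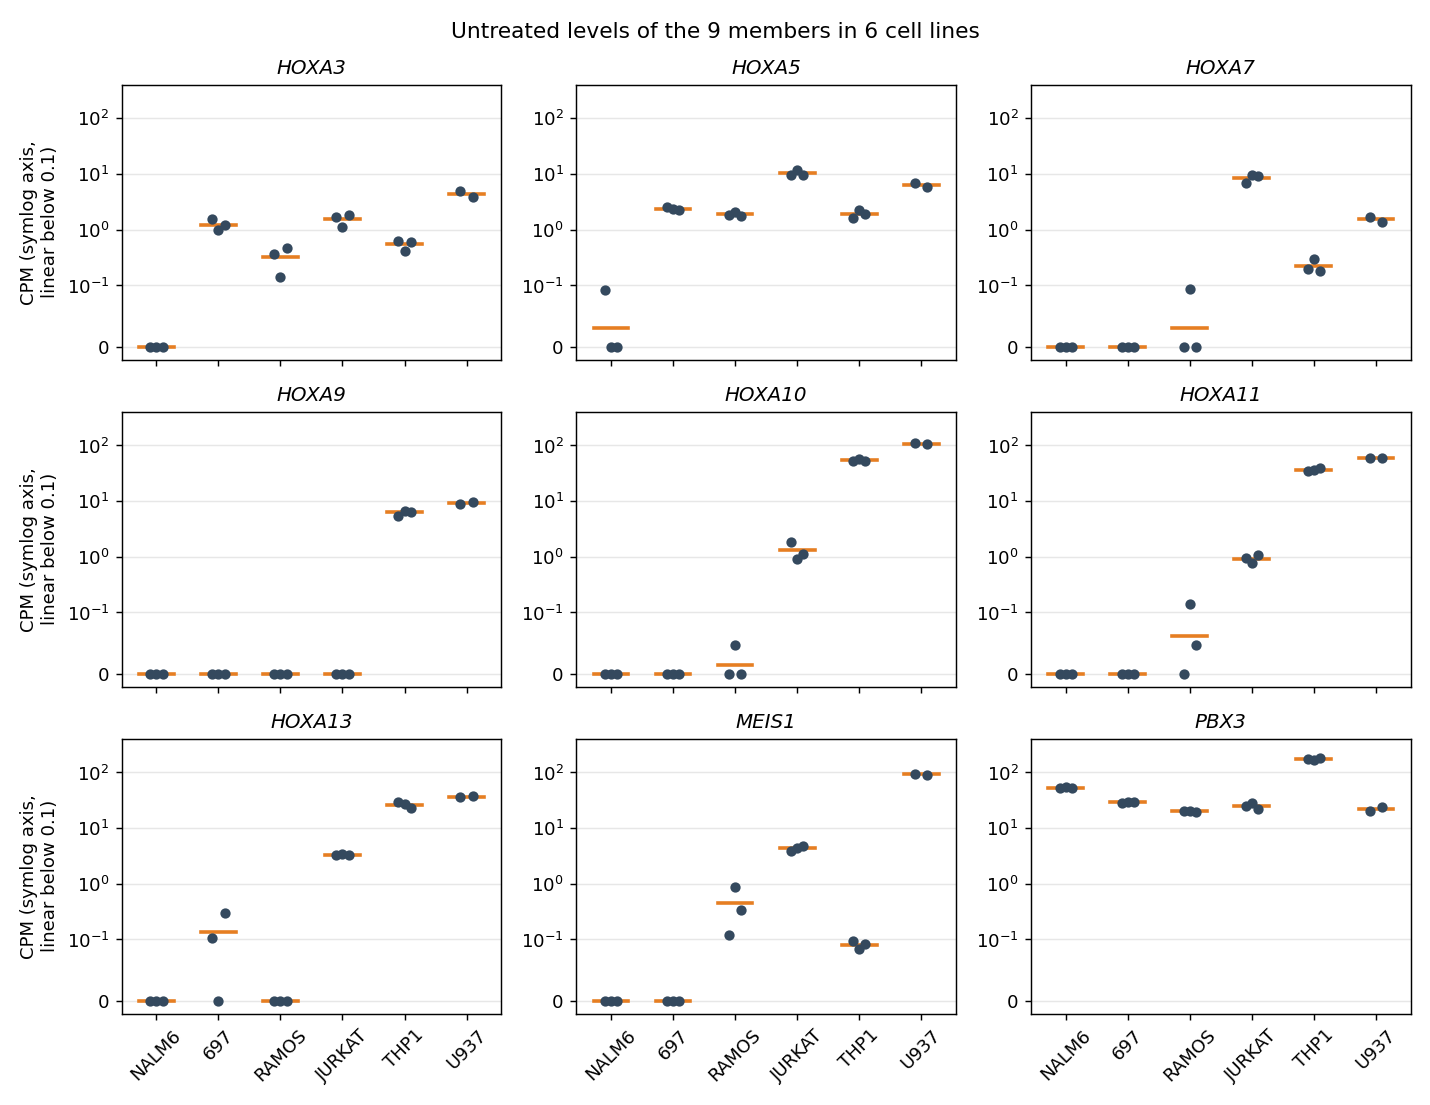
Untreated levels of the 9 genes, 1 panel a gene. Points are control libraries by line, bars are group means, and the vertical axis is CPM on a scale that is linear below 0.1 and logarithmic above. HOXA9 is off zero only in THP1 and U937, MEIS1 peaks in U937 at 92.3 CPM, and PBX3 peaks in THP1 at 176 CPM.

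Between the myeloid lines, which shared a pool, all 9 members passed the test, against a background of 73.4% of 16470 genes called, 39.5% higher and 33.9% lower in THP1. PBX3 was higher in THP1 than in U937 by 2.99 ± 0.0842 on the log2 scale (SE, adjusted p = 3.27e-33, edgeR). The other 8 were lower in THP1. MEIS1 differed most, with a log2 fold change of -9.88 ± 0.228 (adjusted p = 1.58e-34, edgeR), resting on the 6 reads in THP1. The 3' genes followed, at -2.99 ± 0.340 for HOXA3, -2.73 ± 0.438 for HOXA7 and -1.72 ± 0.216 for HOXA5. The 5' genes differed less, at -0.998 ± 0.0888 for HOXA10, -0.70 ± 0.101 for HOXA11, -0.55 ± 0.201 for HOXA9 and -0.47 ± 0.122 for HOXA13. The median over the 9 was -0.998, against 0.050 over all genes. The HOXA9 difference (adjusted p = 0.0148, edgeR) was not past the threshold by DESeq2 (adjusted p = 0.0865), nor without THP1 control 1 or either U937 control (adjusted p of 0.0675, 0.0616 and 0.0968, edgeR).

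Between the untreated pre-B lines 58.6% of genes were called, 27.2% higher and 31.5% lower in NALM6, and 4 of the 9 members were. PBX3 was higher in NALM6 than in 697 by 0.82 ± 0.0742 on the log2 scale (adjusted p = 1.15e-13, edgeR). HOXA3, HOXA5 and HOXA13 were lower in NALM6, where their reads in 3 libraries numbered 0, 1 and 0, against 67, 127 and 8 in 697. HOXA13 lost its call without 697 control 3, which held 6 of its 8 reads (adjusted p = 0.106, edgeR). The other 5 members had no read in either line. Between the myeloid and the lymphoid lines 75.4% of genes were called, 42.7% higher and 32.7% lower in the myeloid lines, and all 9 members were higher. That contrast averages over lines, and JURKAT stood above both myeloid lines in HOXA5 and HOXA7, JURKAT and RAMOS above THP1 in MEIS1, and NALM6, 697 and JURKAT above U937 in mean PBX3.

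Levels of different genes can be set side by side only per length. Per kilobase of GENCODE v29 exon, untreated U937 had 29.2 ± 0.725 CPM of HOXA10, 26.0 ± 0.445 of HOXA11, 7.25 ± 0.109 of HOXA13 and 3.04 ± 0.112 of HOXA9. THP1 had 14.5 ± 0.648 CPM per kilobase of HOXA10, 15.9 ± 0.919 of HOXA11, 5.18 ± 0.609 of HOXA13 and 2.07 ± 0.217 of HOXA9. In JURKAT the highest HOXA level per kilobase was 6.15 ± 0.810 CPM of HOXA5, close to PBX3 at 5.54 ± 0.687, and HOXA7 followed at 3.55 ± 0.562. PBX3 reached 38.9 ± 1.41 CPM per kilobase in THP1, and MEIS1 8.44 ± 0.262 in U937. The HOXA9 level is uncertain. The count files also list a readthrough row, HOXA10-HOXA9, which received 1 read in all 34 libraries, and in GENCODE v29 15.9% of HOXA9 exon bases and 9.93% of HOXA10 exon bases overlap another gene on the same strand. How shared reads were assigned, and whether strand was used, is not given in the sources used here. Antisense genes overlap 62.5% of HOXA7, 31.1% of HOXA11, 16.4% of HOXA10, 15.4% of HOXA3 and 13.9% of HOXA9 exon bases, so sense and antisense reads of these genes cannot be told apart. HOXA5 and PBX3 had no such overlap.

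**Figure D2:**
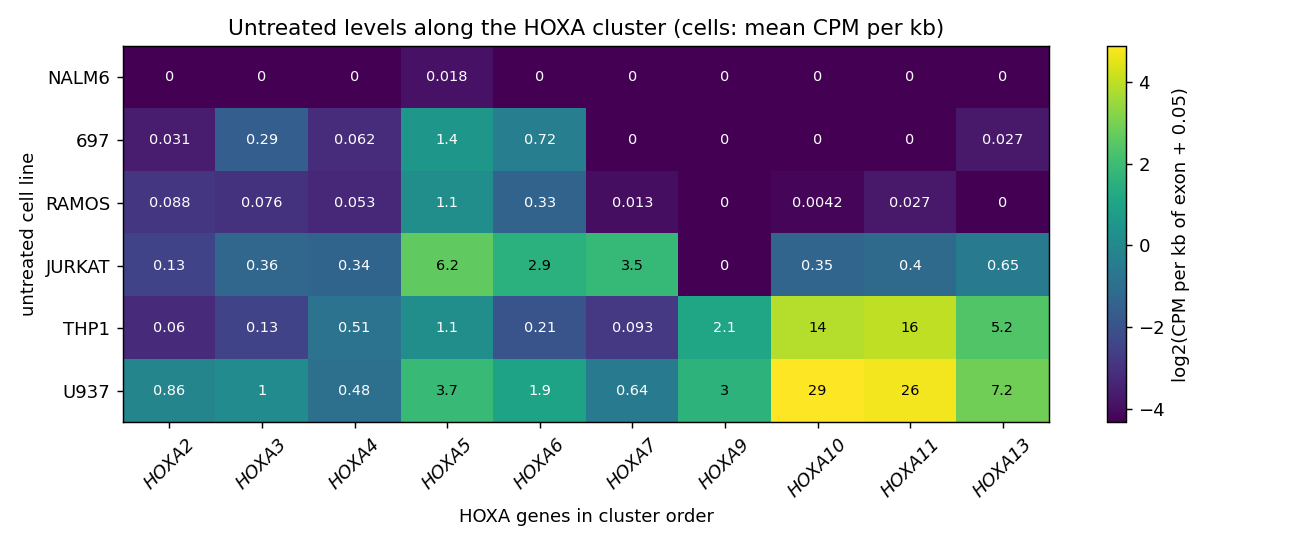
Untreated level along the HOXA cluster, from HOXA2 toward the 3' end to HOXA13 at the 5' end. Each cell is the mean CPM per kilobase of exon of a line, coloured by its log2 value. THP1 and U937 are highest at HOXA10 and HOXA11, JURKAT is highest at HOXA5 (6.15), and NALM6 is near 0 throughout.

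Treated and untreated libraries did not overlap for 41.7% of genes tested in THP1, 62.4% in U937, 80.5% in NALM6, 83.5% in 697, 68.7% in RAMOS and 29.6% in JURKAT, so a lack of overlap was common outside JURKAT. HOXA9 fell in U937. HOXA9 had 3.29, 3.56 and 4.27 CPM in treated U937 libraries, against 8.98 and 9.46 CPM in untreated ones. All treated libraries lay below both controls, at a log2 fold change of -1.31 ± 0.159 (adjusted p = 6.21e-08, edgeR). In THP1, HOXA9 had 7.14, 4.46 and 4.19 CPM in treated libraries, against 5.52, 6.77 and 6.48 CPM in untreated ones. There the groups overlapped, since the first treated library was the highest of the 6, and the log2 fold change was -0.23 ± 0.172 (adjusted p = 0.341, edgeR). Without that library it was -0.54, past the threshold (adjusted p = 0.0286, edgeR). The etoposide effects on HOXA9 differed between the lines by 1.07 ± 0.300 on the log2 scale, THP1 minus U937 (adjusted p = 0.0111, edgeR, where 13% of 17008 genes were called, 5.96% upward and 7.06% downward). Without the first treated THP1 library that difference was 0.77 and not past the threshold (adjusted p = 0.112, edgeR), and without the second U937 control it was 1.03 (adjusted p = 0.0533, edgeR).

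In U937 the neighbours of HOXA9 toward the 5' end had smaller log2 fold changes than HOXA9. HOXA10 had 90.0, 92.1 and 96.3 CPM in treated U937, against 110.1 and 106.2 CPM in untreated U937, and the groups did not overlap. Its log2 fold change was -0.23 ± 0.0567 (adjusted p = 0.00148, edgeR), and without the first U937 control the adjusted p was 0.0565. In THP1 HOXA10 had 48.8, 50.7 and 44.3 CPM in treated libraries, against 52.0, 56.5 and 52.8 CPM in untreated ones, again without overlap, at -0.17 ± 0.0648 (adjusted p = 0.0463, edgeR). That THP1 call was lost by DESeq2 (adjusted p = 0.0725) and without any 1 of 4 libraries, control 2 or 3 or treated library 1 or 3, with an adjusted p of up to 0.247.

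HOXA13 had 25.5, 27.6 and 26.9 CPM in treated U937, against 36.5 and 37.2 CPM in untreated U937. The groups were apart, and the log2 fold change was -0.47 ± 0.0806 (adjusted p = 1.76e-05, edgeR). In THP1 HOXA13 had 25.3, 18.6 and 21.6 CPM in treated libraries, against 29.3, 26.6 and 23.1 CPM in untreated ones. These groups overlapped, at -0.26 ± 0.0973 (adjusted p = 0.0367, edgeR), and the call was lost by DESeq2 (adjusted p = 0.0700) and without any 1 of 4 libraries, control 1 or 2 or treated library 2 or 3, with an adjusted p of up to 0.262.

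HOXA11 had 53.4, 55.4 and 51.5 CPM in treated U937, against 60.7 and 59.2 CPM in untreated U937. Every treated library lay below the controls, at -0.17 ± 0.0677 (adjusted p = 0.0375, edgeR). The call was lost with no filter on low counts (adjusted p = 0.0509) and without either control or treated library 2 or 3, with an adjusted p of up to 0.233. In THP1 HOXA11 had 32.2, 35.8 and 34.1 CPM in treated libraries, against 34.9, 35.8 and 39.0 CPM in untreated ones, which overlapped (log2 fold change -0.11 ± 0.0730, adjusted p = 0.282, edgeR). The THP1 minus U937 differences of the etoposide effect were 0.06 ± 0.119 for HOXA10, 0.06 ± 0.135 for HOXA11 and 0.20 ± 0.167 for HOXA13 on the log2 scale, none past the threshold.

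The 3' members did not pass the test in either myeloid line. HOXA5 had 7.75, 7.92 and 7.01 CPM in treated U937, against 6.96 and 5.77 CPM in untreated U937, a log2 fold change of 0.23 ± 0.149 (adjusted p = 0.214, edgeR). The treated U937 libraries lay above both controls in HOXA5, where 62.4% of genes tested in U937 had groups that did not overlap. HOXA3 gave -0.20 ± 0.189 and HOXA7 -0.04 ± 0.314 in U937, each with overlapping libraries. In THP1 HOXA5 gave 0.17 ± 0.257 and HOXA3 -0.10 ± 0.461, and HOXA7, with 10 reads in treated and 15 in untreated THP1, was too low to test.

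MEIS1 fell in U937 alongside HOXA9. It had 42.2, 35.03 and 39.4 CPM in treated U937, against 94.3 and 90.3 CPM in untreated U937. The groups were far apart, at a log2 fold change of -1.26 ± 0.0724 (adjusted p = 8.72e-15, edgeR), and it stayed between -1.33 and -1.18 under the 9 alternatives run. MEIS1 had 6 reads in treated and 6 reads in untreated THP1, which gives no comparison. In JURKAT it had 4.79, 4.71 and 4.60 CPM in treated libraries, against 3.93, 4.45 and 4.82 CPM in untreated ones, with overlap and a log2 fold change of 0.08 ± 0.166 (adjusted p = 0.815, edgeR).

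PBX3 fell in both myeloid lines and more in THP1. It had 81.4, 90.9 and 83.8 CPM in treated THP1, against 175.6, 169.9 and 182.6 CPM in untreated THP1. All treated libraries lay below all controls, at a log2 fold change of -1.05 ± 0.0494 (adjusted p = 7.81e-20, edgeR). In U937 PBX3 had 18.4, 16.8 and 14.1 CPM in treated libraries, against 20.7 and 24.1 CPM in untreated ones, also without overlap, at -0.46 ± 0.110 (adjusted p = 0.00104, edgeR). The difference between the effects was -0.60 ± 0.124 on the log2 scale, THP1 minus U937 (adjusted p = 4e-04, edgeR). After treatment PBX3 in THP1, at 85.4 ± 4.98 CPM, was still above untreated U937 at 22.4 ± 2.38 CPM.

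**Figure D3:**
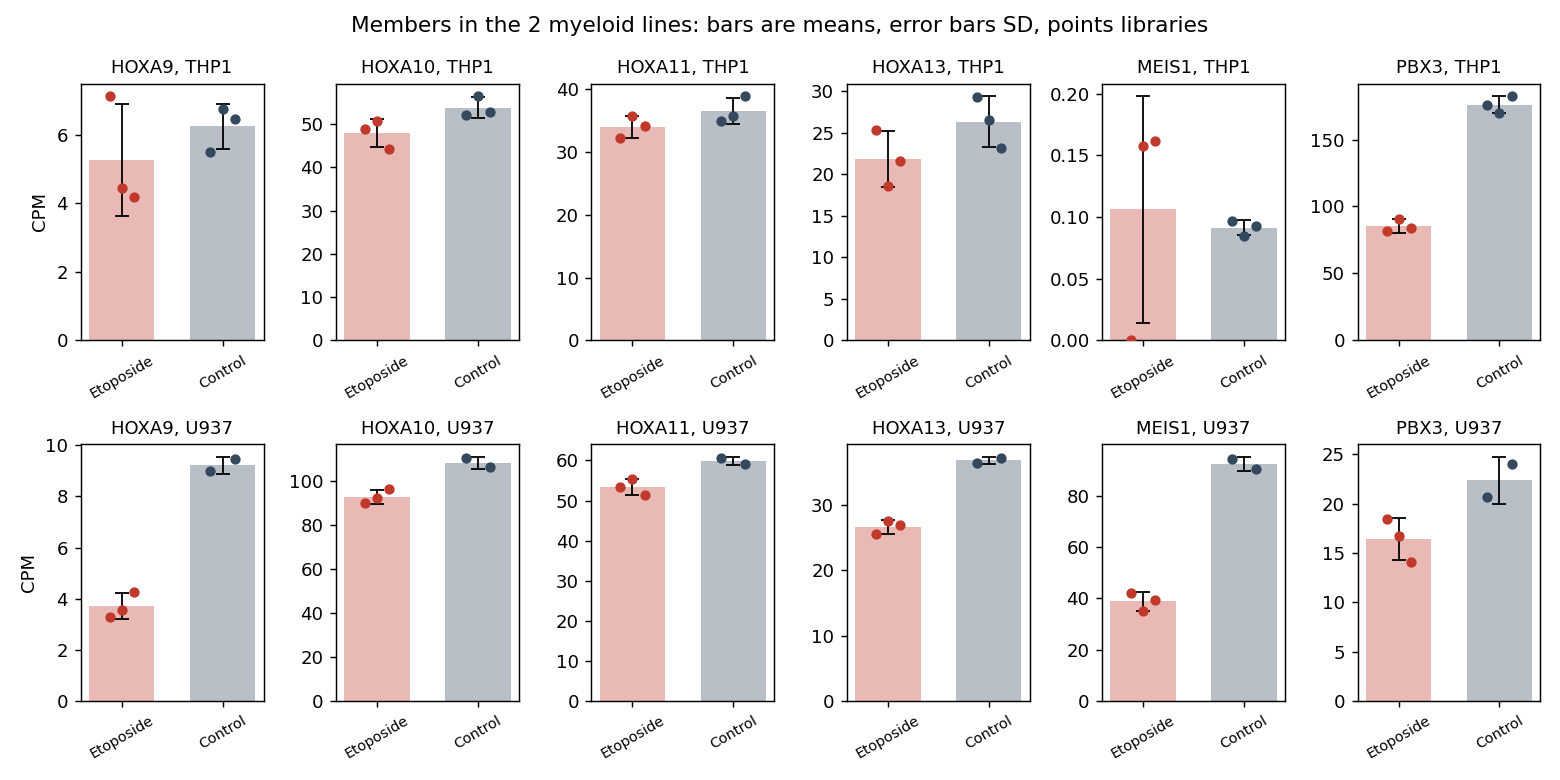
The 5' HOXA members, MEIS1 and PBX3 in THP1 (upper row) and U937 (lower row), treated libraries in red left of untreated in blue. Bars are mean CPM from 0, error bars SD, points libraries, and each panel has its own scale. MEIS1 in U937 and PBX3 in THP1 have treated libraries far below the controls, HOXA9 is separated in U937 only, and MEIS1 in THP1 rests on 6 reads in each group.

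By count, 3 of the 7 members tested in THP1 fell and none rose, where 14% of 13983 genes rose and 17% fell, 31.0% in all. By DESeq2, and by edgeR without control 2 or without treated library 3, only PBX3 of these 7 was called in THP1. In U937 6 of 9 fell and none rose, where 22.1% of 13235 genes fell and as many rose, 44.2% in all. The members' median log2 fold change was -0.17 in THP1 and -0.23 in U937, against 0.0038 and 0.0052 over all genes tested.

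In the pre-B lines PBX3 fell as well. PBX3 had 21.9, 22.4 and 21.7 CPM in treated NALM6, against 52.9, 53.8 and 52.0 CPM in untreated NALM6, with no overlap and a log2 fold change of -1.24 ± 0.0780 (adjusted p = 3.25e-19, edgeR). In 697 PBX3 had 17.6 and 15.01 CPM in treated libraries, against 28.6, 29.97 and 28.9 CPM in untreated ones, also without overlap, at -0.81 ± 0.105 (adjusted p = 2.51e-06, edgeR). The PBX3 effect was larger in NALM6 by 0.44 on the log2 scale (NALM6 minus 697, -0.44 ± 0.140, adjusted p = 0.01, edgeR, where 31.2% of genes were called, 15.1% upward and 16.1% downward). Without the first treated 697 library that difference was -0.32 and not past the threshold (adjusted p = 0.186, edgeR).

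HOXA5 and HOXA3 fell in 697. HOXA5 had 0.586 and 0.229 CPM in treated 697, against 2.57, 2.36 and 2.26 CPM in untreated 697, with no overlap and a log2 fold change of -2.41 ± 0.432 (adjusted p = 8.36e-05, edgeR). HOXA3 had 0.489 and 0.381 CPM in treated 697, against 1.55, 0.971 and 1.20 CPM in untreated 697, at -1.47 ± 0.481 (adjusted p = 0.0110, edgeR). The HOXA3 call was lost without either treated library (adjusted p = 0.0569 and 0.0736, edgeR). HOXA13 had no read in treated and 8 reads in untreated 697, 6 of them in control 3, which is too few to test. In NALM6 only PBX3 passed the count filter and it fell, where 40.3% of 12589 genes fell and 41.3% rose, 81.5% in all. In 697 the 3 members tested fell, where 36.9% of 13439 genes fell and 39.4% rose, 76.3% in all. HOXA3 and HOXA5 passed the count filter there through their untreated libraries (67 and 127 reads, against 15 each in treated ones). A low gene that passes in that way can hardly do other than fall, so this count is partly set by the filter. The falls in NALM6 and 697 stand beside the change of library pool in both lines.

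HOXA5 also fell in RAMOS, whose libraries lay within 1 pool. HOXA5 had 0.276, 0.825 and 0.140 CPM in treated RAMOS, against 1.82, 2.06 and 1.80 CPM in untreated RAMOS. No library overlapped, and the log2 fold change was -2.27 ± 0.404 (adjusted p = 2.54e-06, edgeR). PBX3 had 16.6, 14.9 and 16.7 CPM in treated RAMOS, against 19.98, 20.5 and 19.6 CPM in untreated RAMOS, at -0.31 ± 0.0902 (adjusted p = 0.00223, edgeR), the smallest of the PBX3 falls called. HOXA3 had 1 read in treated and 16 reads in untreated RAMOS, a ratio of 0.0643 (95% counting interval 0.00153 to 0.414). Both members tested fell, where 35.5% of 12240 genes fell and 34.2% rose, 69.7% in all. HOXA5 passed the count filter in RAMOS through its untreated libraries (97 reads, against 19 in treated ones). Its place in that count is thus partly set by the filter. In treated RAMOS MEIS1 had 14 reads in all, against 27 in untreated RAMOS, too few to test.

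In JURKAT none of the 8 members tested passed the threshold in edgeR, where 13% of 13914 genes did, 6.71% rising and 6.27% falling, none had an unadjusted p under 0.05, and DESeq2 gave an adjusted p to 5 of them, none past it. HOXA5 had 8.94, 9.83 and 12.7 CPM in treated JURKAT, against 9.82, 12.1 and 9.58 CPM in untreated JURKAT. HOXA7 had 9.499, 10.4 and 8.15 CPM in treated libraries, against 7.01, 9.47 and 9.21 CPM in untreated ones. The groups overlapped in both genes, with log2 fold changes of -0.01 ± 0.147 for HOXA5 and 0.11 ± 0.142 for HOXA7. The largest were 0.64 ± 0.333 for HOXA11, from 90 reads in treated and 42 in untreated libraries (adjusted p = 0.234, edgeR), and 0.46 ± 0.307 for HOXA10 (adjusted p = 0.366, edgeR). PBX3 gave 0.07 ± 0.117, with 24.98, 23.3 and 30.6 CPM in treated JURKAT and 25.2, 28.1 and 21.9 CPM in untreated JURKAT. HOXA3 gave 0.28 ± 0.285 and HOXA13 0.00 ± 0.190.

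**Figure D4:**
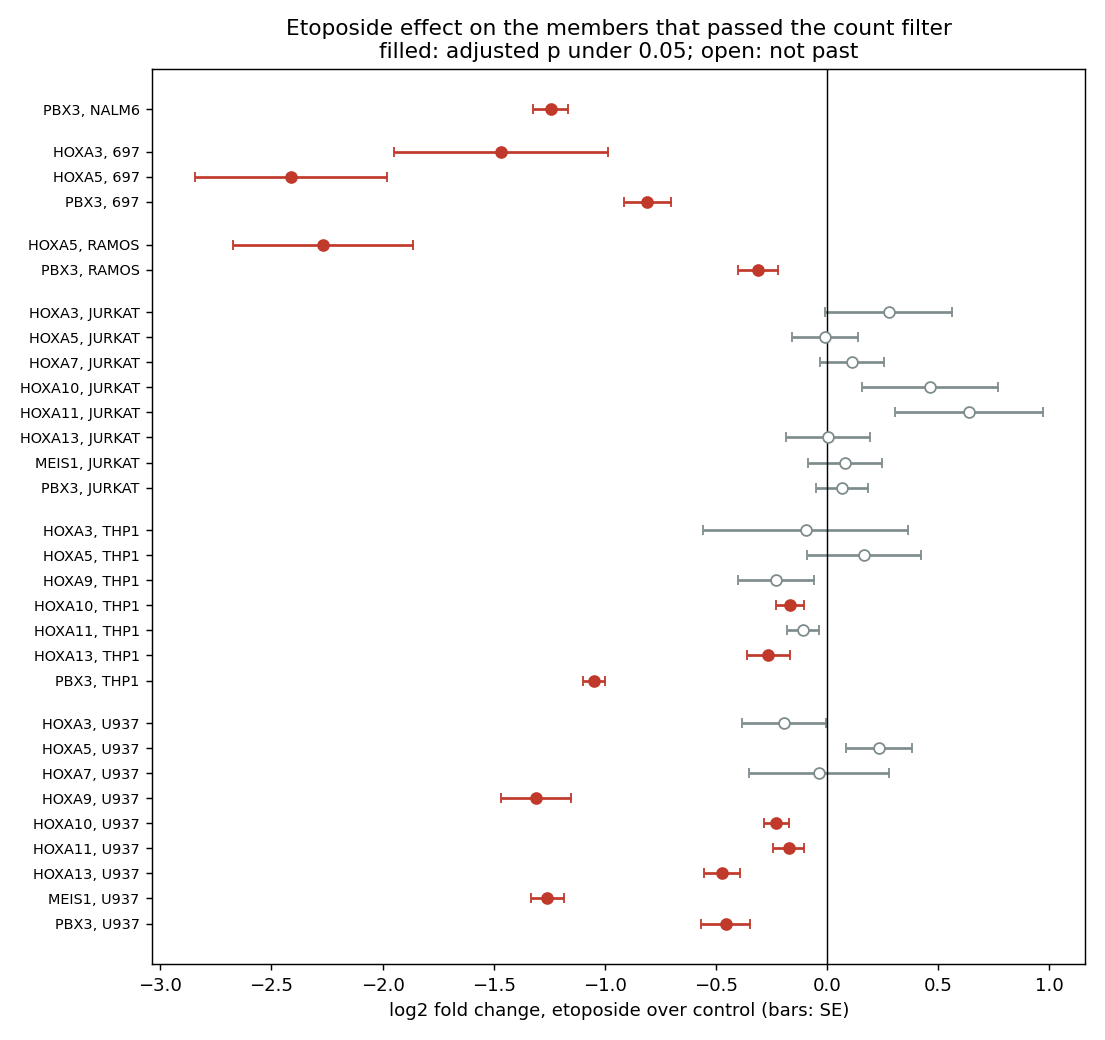
Log2 fold change, etoposide over control, of each member that passed the count filter, by line, with SE. Filled points passed an adjusted p of 0.05 and open points did not. All filled points lie below 0, PBX3 is filled in every line but JURKAT, and the 8 JURKAT points are open.

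A test of whether the effect differed among the 6 lines was past the threshold for 5 of the 9 members, where 77.7% of genes were. These were PBX3 (adjusted p = 2.44e-15), HOXA5 (6.91e-09), MEIS1 (1.78e-05), HOXA3 (0.00334) and HOXA9 (0.0342), all by edgeR. HOXA7, HOXA10, HOXA11 and HOXA13 were not past it, with adjusted p-values between 0.114 and 0.716. These genes had no read in NALM6 and at most 4 reads a group in RAMOS. Those lines gave little or no estimate for them, so their result does not show like effects in all 6 lines. The HOXA9 call was lost by DESeq2 (adjusted p = 0.105) and without any 1 of 7 libraries, THP1 control 1 or 3, THP1 treated library 1, either U937 control or U937 treated library 1 or 2, with an adjusted p of up to 0.243. HOXA10 was past the threshold without JURKAT control 1 (adjusted p = 0.0348, edgeR).

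Of 11 other genes of the HOXA cluster listed, 7 had a row under the listed symbol. Of those tested, 1 of 3 fell in THP1, 1 of 6 in U937 and 1 of 1 in 697. None rose, and none was tested in NALM6. The 1 tested in RAMOS and the 5 tested in JURKAT did not pass in edgeR, and none of them had an unadjusted p under 0.05. Over all genes tested, 31.0% were called in THP1, 44.2% in U937, 76.3% in 697, 69.7% in RAMOS and 13% in JURKAT. The listed gene that fell in the myeloid lines was HOTTIP, a long noncoding RNA beyond HOXA13 at the 5' end. It averaged 7.18 ± 0.152 CPM in treated and 12.1 ± 0.788 CPM in untreated THP1, a log2 fold change of -0.75 ± 0.123 (adjusted p = 5.48e-06, edgeR). In U937 HOTTIP averaged 7.24 ± 0.868 CPM in treated and 10.5 ± 0.654 CPM in untreated cells, at -0.54 ± 0.135 (adjusted p = 0.00160, edgeR). HOXA6 fell beside HOXA5 in 697, with 3 reads in treated and 50 in untreated libraries, a ratio of 0.0948 (95% counting interval 0.0189 to 0.293). In RAMOS HOXA6 had 2 reads in treated and 21 in untreated libraries, a ratio of 0.0979 (0.0111 to 0.401). HOTTIP lay on the other side in 697, where it was too low to test, with 18 reads in treated and 1 in untreated libraries, a ratio of 28.4 (4.49 to 1180). The list's median was -0.14 in THP1, -0.32 in U937 and -0.14 in JURKAT. In 697 and RAMOS only 1 gene each was tested, so no median is given there. HOXA6 gave -3.28 in 697, where it passed the count filter through its untreated libraries. The gene tested in RAMOS gave 0.33, not past the threshold. Over all genes tested the median lay between -0.0022 and 0.047 in the 6 lines.

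Among 28 genes of the HOXB, HOXC and HOXD clusters, 2 of 3 tested rose in THP1, 1 of 7 fell in U937, 2 rose and 1 fell of 4 in RAMOS, and 2 rose and 3 fell of 16 in JURKAT. The share called among all genes tested was 31.0% in THP1, 44.2% in U937, 69.7% in RAMOS and 13% in JURKAT. None of the 28 passed the count filter in NALM6 or 697. HOXB3 and HOXB4 rose in THP1, by 0.68 ± 0.151 (adjusted p = 0.000452, edgeR) and 0.50 ± 0.153 (adjusted p = 0.0108, edgeR) on the log2 scale, and in RAMOS by 0.53 ± 0.155 and 0.29 ± 0.0926. HOXC10 fell in U937 and JURKAT, with log2 fold changes of -0.32 ± 0.0962 and -0.45 ± 0.116. The median of this list was 0.50 in THP1, -0.11 in U937, 0.0045 in RAMOS and -0.13 in JURKAT. The untreated myeloid lines again differed, since HOXB4 averaged 4.77 ± 0.109 CPM in THP1 and had no read in U937, and HOXC10 averaged 0.162 ± 0.116 CPM in THP1 and 21.4 ± 0.802 in U937.

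The genes that flank the cluster on chromosome 7 were listed for comparison. Counts in this list and those that follow stand beside the share of all tested genes called in the same line. That share was 81.5% in NALM6, 76.3% in 697, 69.7% in RAMOS, 44.2% in U937, 31.0% in THP1 and 13% in JURKAT. Whether a list exceeded that share was not tested. Of 8, 1 rose and 5 fell in THP1, 2 rose and 1 fell in U937, 1 rose and 4 fell of 5 tested in NALM6, 1 rose and 5 fell of 6 in 697, 2 rose and 6 fell in RAMOS, and 1 of 7 fell in JURKAT. NFE2L3, a stress-response transcription factor gene, rose in NALM6 by 3.18 ± 0.240, in 697 by 2.86 ± 0.206, in THP1 by 0.52 ± 0.0811 and in U937 by 0.23 ± 0.0893 on the log2 scale. JAZF1 gave -0.87 ± 0.0910 in 697, -1.52 ± 0.0919 in RAMOS and -0.40 ± 0.106 in U937. The median log2 fold change of this list was -0.20 in THP1, 0.012 in U937, -1.06 in NALM6, -0.93 in 697, -0.41 in RAMOS and -0.0087 in JURKAT.

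PBX3 belongs to the TALE family, and 8 other TALE genes were listed. Of those tested, 1 of 6 fell in THP1, 1 rose and 1 fell of 6 in U937, 1 rose and 2 fell of 4 in NALM6, 4 rose and 2 fell of 6 in 697, 1 rose and 2 fell of 4 in RAMOS, and 1 rose and 1 fell of 6 in JURKAT. PBX4, a relative of PBX3, rose in the pre-B lines, where PBX3 fell. It averaged 33.8 ± 0.414 CPM in treated and 0.995 ± 0.355 CPM in untreated 697, at 5.14 ± 0.177 on the log2 scale (adjusted p = 9.14e-14, edgeR). In NALM6 PBX4 averaged 2.95 ± 0.175 CPM in treated and 0.901 ± 0.197 CPM in untreated cells, at 1.78 ± 0.302 (adjusted p = 8.87e-07, edgeR). PKNOX2 had 22 reads in treated and none in untreated NALM6, at least 8.77-fold higher, and 28 reads in treated and none in untreated 697, at least 14.7-fold higher, at the floor of 3 counts over the group. In both lines these changes, too, coincide with the library pool.

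MEIS2, the closest relative of MEIS1, gave 1.05 ± 0.168 in 697, 0.49 ± 0.124 in JURKAT and -0.50 ± 0.0703 in RAMOS on the log2 scale, each past the threshold. TGIF1, a TALE repressor, fell in THP1 by 0.53, in NALM6 by 1.09, in 697 by 1.34 and in JURKAT by 1.06 on the log2 scale, and rose in U937 by 0.18 ± 0.0746 (adjusted p = 0.0480, edgeR). The TGIF1 effects differed between the myeloid lines by -0.72 ± 0.127, THP1 minus U937 (adjusted p = 3.35e-05, edgeR). The list's median was 0.057 in THP1, 0.12 in U937, -0.093 in NALM6, 0.68 in 697, -0.13 in RAMOS and 0.011 in JURKAT.

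**Figure D5:**
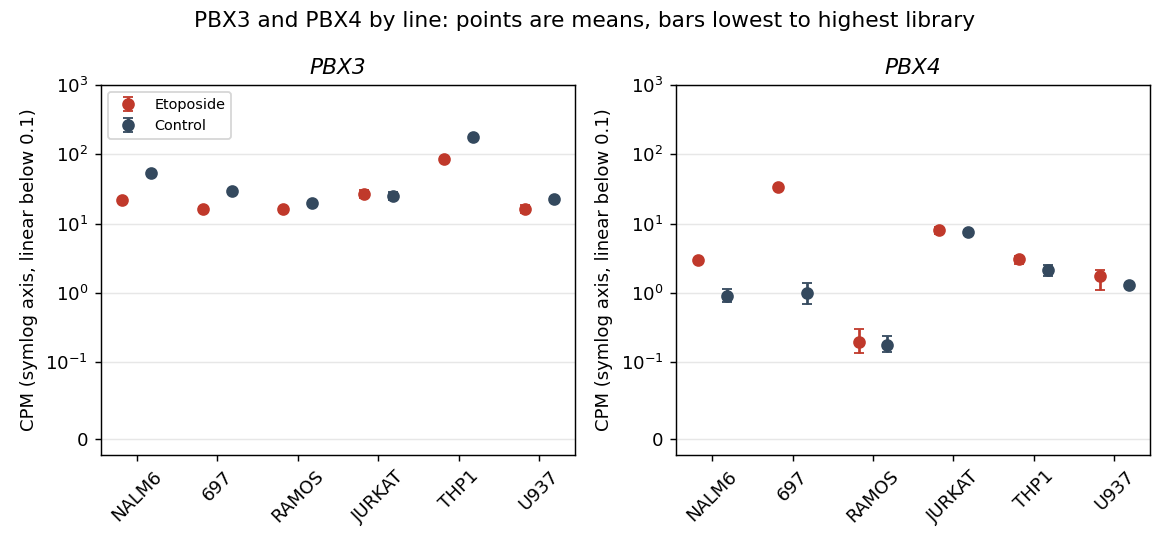
PBX3 and PBX4 by line, treated in red left of untreated in blue. Points are mean CPM on an axis that is linear below 0.1 and logarithmic above, and bars run from the lowest to the highest library. PBX3 lies lower and PBX4 higher in treated NALM6 and 697, whereas in JURKAT the treated and untreated points of both genes lie close together.

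HOXA transcription is known to be kept on by KMT2A and its complex and off by Polycomb proteins. Of 19 genes of the KMT2A complex and its fusion partners, 5 rose and 4 fell in THP1, 8 rose and 5 fell in U937, 4 rose and 8 fell of 17 tested in NALM6, 6 rose and 11 fell of 18 in 697, 9 rose and 9 fell in RAMOS, and 4 rose and 2 fell in JURKAT. AFF1, a subunit of the super elongation complex, fell in THP1 by 0.67 and in U937 by 0.79 on the log2 scale. CCNT1, the cyclin of P-TEFb, rose there by 0.34 ± 0.0553 and 0.95 ± 0.0591. Both genes were called in the same directions in every lymphoid line. AFF1 gave -1.145 in NALM6, -2.00 in 697, -1.14 in RAMOS and -0.26 in JURKAT. CCNT1 gave 0.46 in NALM6, 0.33 in 697, 0.53 in RAMOS and 0.42 in JURKAT. The myeloid lines differed in the effect on DOT1L, the histone methyltransferase recruited by KMT2A fusions. That difference was 0.48 ± 0.0892 on the log2 scale, THP1 minus U937 (adjusted p = 8.29e-05, edgeR), and DOT1L fell in U937 by 0.58 on that scale. The list's median was 0.036 in THP1, -0.037 in U937, -0.11 in NALM6, -0.42 in 697, -0.019 in RAMOS and 0.022 in JURKAT.

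Of 17 Polycomb genes and opposing demethylases, 2 rose and 1 fell of 15 tested in THP1, 4 rose and 3 fell of 16 in U937, 9 rose and 4 fell of 16 in NALM6, 3 rose and 8 fell of 16 in 697, 7 rose and 5 fell of 16 in RAMOS, and 3 rose and 1 fell of 16 in JURKAT. JARID2, a subunit of Polycomb repressive complex 2, fell in all 6 lines, by 1.09 in THP1, 1.38 in U937, 1.25 in NALM6, 2.58 in 697, 1.05 in RAMOS and 0.73 in JURKAT on the log2 scale. BMI1, a subunit of Polycomb repressive complex 1, averaged 6.99 ± 1.78 CPM in treated and 18.2 ± 1.51 CPM in untreated U937, at -1.40 ± 0.144 (adjusted p = 2.49e-09, edgeR), and its effect differed from that in THP1 by 1.58 ± 0.265 (adjusted p = 1.37e-05, edgeR). KDM6A, the demethylase that opposes Polycomb, had 2 reads in untreated THP1 and 2898 reads in untreated U937. Over the list the median was 0.043 in THP1, 0.087 in U937, 0.28 in NALM6, -0.37 in 697, 0.15 in RAMOS and 0.14 in JURKAT.

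The last list held 14 genes known, in mouse or human myeloid leukemia models, as targets of HOXA9 and MEIS1 or as co-regulated with them. Of those tested, 1 rose and 7 fell of 12 in THP1, and 8 of 12 fell in U937. In NALM6 4 rose and 9 fell of 13, and likewise in 697. In RAMOS 4 rose and 5 fell of 10, and in JURKAT 2 of 11 fell. Among all genes tested, 31.0% were called in THP1, 44.2% in U937 and 81.5% in NALM6. The share was 76.3% in 697, 69.7% in RAMOS and 13% in JURKAT. MYB, a progenitor transcription factor, fell in THP1 by 0.64 and in U937 by 0.88 on the log2 scale, and the difference was 0.23 ± 0.0750 (adjusted p = 0.0326, edgeR). In RAMOS MYB rose by 2.88 ± 0.0558. BCL2, a survival gene, fell in THP1 by 0.89 and in U937 by 0.66, and CDK6, a cell cycle kinase gene, by 0.98 in THP1 and 0.71 in U937. CDK6 was called lower in all 6 lines, with log2 fold changes of -1.90 in NALM6, -1.29 in 697, -0.28 in RAMOS and -0.99 in JURKAT. BCL2 was not past the threshold in RAMOS or JURKAT. MEF2C averaged 83.6 ± 6.11 CPM in treated and 148.3 ± 4.27 CPM in untreated THP1, and its effect there differed from that in U937 by -0.99 ± 0.118 (adjusted p = 4.36e-09, edgeR). The median over this list was -0.49 in THP1, -0.35 in U937, -1.10 in NALM6, -1.28 in 697, -0.11 in RAMOS and -0.13 in JURKAT. In the pre-B lines PIM1, a survival kinase gene, rose by 2.67 ± 0.0706 in NALM6 and by 3.70 ± 0.0788 in 697 on the log2 scale. MYB fell there by 1.38 in NALM6 and by 3.39 in 697, CDK6 fell by 1.90 and the transcription factor gene ERG fell by 1.72 in NALM6, and MEF2C fell by 3.26 and BCL2 fell by 2.28 in 697. Neither HOXA9 nor MEIS1 had a read in any NALM6 or 697 library, treated or untreated. The part of HOXA9, MEIS1 or the library pool in the changes of this list was not tested.

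The genes whose pattern over the 12 groups of line and treatment was most like that of HOXA9, by Pearson correlation of the group means of log2(CPM + 1), were CHST13 (r = 0.994), CXCL6 (0.993), SHH (0.992), CLDN18 (0.991) and KCNQ1 (0.990). For MEIS1 they were PPP2R2B (0.993), RETN (0.991), HOXC8 (0.987), FAM83F (0.986) and HTRA1 (0.985). For PBX3 they were COQ5 (0.969), FOXJ3 (0.944), COL8A2 (0.931), RBKS (0.929) and ANO6 (0.923). These values are a description over 12 groups that share lines and pools, and for HOXA9 and MEIS1 they mostly follow which lines hold reads at all.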

How the data were processed

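RNA from 34 libraries was measured as read counts. The deposited count files hold whole numbers for each gene symbol. The submitters' processing notes list HISAT, HTSeq and the build hg19. Library kits were TruSeq RNA, per the labels' protocols. The authors' comparison tables were not used here. How strand was used and how many reads went unassigned is not given in the sources used here. No row other than gene symbols entered library sizes.

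From the counts, CPM were computed with TMM scaling over all libraries. Within each line, genes passing filterByExpr (minimum count 10) were tested with edgeR 4.0.16 quasi-likelihood (R 4.3.3), two-sided, with Benjamini-Hochberg adjustment over all genes tested. Untreated lines were compared in a fit of the 17 controls, and differences of the etoposide effect in a fit of all 34 libraries. Alternatives were DESeq2 1.42.0, RLE size factors, no filter, a replicate block, a 34-library fit of the untreated contrasts, plain CPM for the levels, and leaving out each library. The procedures were tested on simulated data. Depth was 8.18 to 37.1 M counts, and intervals (95%) and floors (3 counts) cover counting error only, since PCR reads without molecular identifiers are not independent molecules. The origin of replicates is not stated, so p-values cover only the spread among these libraries, possibly technical. No replicates were closer than sampling noise.

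The 9 members, the 7 gene lists and the naming rule were chosen with earlier results of these data known. The rule names every member, up to 4 genes per list and line with the smallest adjusted p, and the 5 genes most like HOXA9, MEIS1 and PBX3. Outside it, HOXA6 in RAMOS, HOTTIP in 697, PKNOX2 and HOXA-AS5 were named after their values were seen. The same holds for CDK6 in 697 and RAMOS, AFF1 in JURKAT and CCNT1 in NALM6 and 697. A few genes of these lists are not reported here and were left out of the list counts. Promoters are from RefSeq (GRCh38.p14) and exon lengths from GENCODE v29 (GRCh38), neither being the authors' build, so both were matched by symbol.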

Additional observations from a re-analysis of the deposited data

Results flagged for a closer look

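The etoposide effect differed between lines, by a test of the difference itself, for 5 of the 9 members. Between the myeloid lines (THP1 minus U937, log2 scale, edgeR) the difference was 1.07 for HOXA9 (adjusted p = 0.0111) and -0.595 for PBX3 (adjusted p = 4e-04), so PBX3 fell more in THP1. The HOXA9 difference was not past the threshold without the first treated THP1 library (adjusted p = 0.112) or the second U937 control (adjusted p = 0.0533). Between the pre-B lines (NALM6 minus 697) it was -0.444 for PBX3 (adjusted p = 0.01), and not past it without the first treated 697 library (adjusted p = 0.186). In the joint test over 6 lines the adjusted p was 0.00334 for HOXA3, 6.91e-09 for HOXA5, 0.0342 for HOXA9, 1.78e-05 for MEIS1 and 2.44e-15 for PBX3, against 77.7% of all genes called in that test. The HOXA9 value was not past the threshold by DESeq2 (adjusted p = 0.105) or without any 1 of 7 THP1 or U937 libraries (up to 0.243). HOXA9, MEIS1, HOXA3 and HOXA5 had no or few reads in some of the lines of that test.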

How the results depend on the processing

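Counts of called genes stayed within 1.5 times of the reported ones for all 12 comparisons under RLE size factors, DESeq2, no filter on low counts, the replicate block and, for the untreated contrasts, the 34-library fit. Leaving out 1 library gave 1095 to 1582 called genes in JURKAT (1806 with all, lowest without the first treated library) and 1181 to 2482 for the THP1 minus U937 difference (2215 with all, lowest without the first U937 control). Same-numbered treated and control libraries did not deviate together (JURKAT correlations 0.0864, -0.209 and -0.179, with no line above 0.1 in every pair), so the numbers were not taken as pairs. With the replicate block the counts were 10060 in NALM6, 9655 in 697, 8448 in RAMOS, 1276 in JURKAT, 4219 in THP1 and 6518 in U937, and among members it changed a call only for HOXA9 over 6 lines (adjusted p = 0.0730, edgeR). Changes of sign among members fell on values that had not passed the test. HOXA5 in JURKAT was 0.0012 with no filter, and HOXA7 in U937 was 0.12 with the replicate block. Over the libraries left out, log2 fold changes in JURKAT ran from -0.026 to 0.029 for HOXA13, from -0.16 to 0.11 for HOXA5 and from -0.051 to 0.16 for PBX3. They ran from -0.26 to 0.0084 for HOXA3 in THP1, and in U937 from -0.36 to 0.0057 for HOXA3 and from -0.15 to 0.11 for HOXA7. The THP1 minus U937 difference ran from -0.12 to 0.26 for HOXA3 and from -0.22 to 0.063 for HOXA5. The cause of these changes was not tested. PBX3 in 5 lines, MEIS1, HOXA9 and HOXA13 in U937 and HOXA5 in 697 and RAMOS kept their calls in every alternative run. Plain CPM moved 16 of 36 untreated member levels by more than 1 SD. Depth limits the 7 HOXA members and MEIS1 in the lines where they had under 30 reads a group. HOXA5 had 15 reads in treated 697 and 19 in treated RAMOS. A group left with 1 library by a leave-one-out fit was assumed to vary like the others.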
